A study of Mus musculus with 6 samples.

Results

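The 8 genes described here encode the chemokines that recruit monocytes and the receptors that read them, measured in mouse heart RNA. *Ccl2*, *Ccl7*, *Ccl12*, *Ccl6*, *Ccl9*, *Ccr2*, *Cx3cl1* and *Cx3cr1* were taken by symbol from the 24346 genes in the files, and all 8 were found and passed the filter on low values. The hearts came from C57BL/6J male mice, whose age the labels and the methods do not give. The C group received normal chow, the N group received the NASH diet, which is rich in fat, cholesterol and sucrose and contains bile acid, and the NP group received that diet plus pemafibrate, a PPARα agonist of the selective modulator type, at 0.1 mg/kg. Each group had 2 libraries, written here as replicates 1 and 2, and no label says whether they came from separate animals, so the *P* values measure only the spread between these libraries. The labels give 3 weeks of feeding and the methods of the study give 8 weeks.

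Chemokines are small secreted proteins that guide leukocytes by binding receptors coupled to G proteins. Ccl2, Ccl7 and Ccl12 bind Ccr2, the receptor that inflammatory monocytes need to leave the bone marrow and enter inflamed tissue, the heart included. Ccl6 and Ccl9 are rodent chemokines made largely by myeloid cells, and they act mainly through Ccr1. Cx3cl1, or fractalkine, is made as a membrane protein by endothelium and other cells and can be shed, and its receptor Cx3cr1 marks patrolling monocytes and many tissue macrophages.

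Values are FPKM, fragments per kilobase of transcript scaled to the number of mapped fragments, which allow levels to be compared between genes. The depth was estimated at 21550000 to 26160000 reads in the C libraries and 8210000 to 8780000 reads in the N and NP libraries. Cardiomyocyte markers were abundant in every library, with summed FPKM of 45892 to 56405. Markers of atrial muscle summed to 172 and 307 FPKM in the C libraries and to 3665 to 6191 FPKM in the N and NP libraries. All 5 were called higher in the N libraries than in chow, as were 191 of all 12923 genes tested. Of these markers, *Sln* (0 and 0.450 FPKM in C) and *Bmp10* (0 and 0.083 FPKM in C) passed the filter only through the N and NP libraries. Their calls are therefore descriptions. Liver markers summed to 438 FPKM in C replicate 2 and to 9.77 to 31.1 FPKM in the other libraries, and the extraction protocol in the labels speaks of liver, whereas the tissue label is heart. Depth and atrial markers separated the C libraries from all others, so they cannot be told apart from the diet in comparisons with chow. The part of these differences in the results was not tested.

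The 5 CC chemokine genes lie on chromosome 11 in 2 clusters (mm10, RefSeq annotation of GRCm38.p6). *Ccl2* (82035577 to 82037452), *Ccl7* (82045712 to 82047525) and *Ccl12* (82101845 to 82103399) stand in the first cluster. *Ccl9* (83572917 to 83578636) and *Ccl6* (83587886 to 83593087) stand side by side in the second. *Ccr2* (124101918 to 124109140) and *Cx3cr1* (120048683 to 120068296) are both on chromosome 9, and *Cx3cl1* (94772180 to 94782427) is on chromosome 8. *Ccl6* overlaps the noncoding gene *E230016K23Rik*, and *Cx3cl1* and *Cx3cr1* overlap the gene models *Gm51543* and *Gm33858*, so reads could be shared there unless strand was used in counting, which the sources do not state.

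The promoters of 6 of the 8 genes were in the RefSeq table used (GRCm38.p6), and *Ccl2* and *Ccl7* were not. Those of *Ccl12*, *Ccl6* and *Ccl9* are shown because all 3 hold the letters GGAAGTG, which include the GGAA core bound by ETS factors, on one strand or the other. Each is given 5′ to 3′ over the 250 bases before the start, at chr11:82101595-82101844 on the plus strand for *Ccl12*, chr11:83593088-83593337 on the minus strand for *Ccl6* and chr11:83578637-83578886 on the minus strand for *Ccl9*, with capitals for GGAAGTG, written CACTTCC when read from the other strand, and for the TATA box letters TATAAA, written TTTATA there.
Ccl12: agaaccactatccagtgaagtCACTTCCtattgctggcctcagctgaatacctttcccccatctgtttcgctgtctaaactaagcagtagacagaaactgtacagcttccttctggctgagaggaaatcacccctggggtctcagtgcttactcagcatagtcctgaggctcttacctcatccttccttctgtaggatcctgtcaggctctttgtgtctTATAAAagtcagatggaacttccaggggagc
Ccl6: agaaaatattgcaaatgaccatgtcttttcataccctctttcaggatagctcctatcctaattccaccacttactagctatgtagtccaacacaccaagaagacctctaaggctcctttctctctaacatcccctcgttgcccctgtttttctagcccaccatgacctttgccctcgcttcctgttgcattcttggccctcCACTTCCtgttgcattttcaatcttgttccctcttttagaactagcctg
Ccl9: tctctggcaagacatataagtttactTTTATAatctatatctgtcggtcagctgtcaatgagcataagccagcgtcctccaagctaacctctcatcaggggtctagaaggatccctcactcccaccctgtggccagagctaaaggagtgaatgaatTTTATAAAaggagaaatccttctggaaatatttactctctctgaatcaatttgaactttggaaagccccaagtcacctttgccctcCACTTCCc

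The GGAAGTG letters ended 223 bases before the start in *Ccl12*, 43 bases before it in *Ccl6* and 2 bases before it in *Ccl9*. Of all 32851 promoters of this length, 8.55% held them on either strand. TATAAA was present in *Ccl12*, *Ccl9* and *Cx3cl1* and in 12.4% of all promoters. The neighbours *Ccl6* and *Ccl9* shared a run of 13 bases, gccctccacttcc, which includes the GGAAGTG match, while the longest runs shared by other pairs were 7 to 10 bases. A form of the NF-κB site was in 1.21% of all promoters and a form of the interferon response element in 2.98%, and neither was in the windows of the 6 genes. All of these letters were chosen after the promoters had been read, and a match describes the sequence only.

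Every member was higher in both N libraries than in both C libraries, and lower in both NP libraries than in both N libraries. Between the N and C groups 8 of the 8 members were higher without overlap, beside 22.5% of the 12923 genes tested, and 6 of the 8 were so with libraries scaled to the same median and 7 with quantile normalization. Between the NP and N groups 8 of the 8 were lower without overlap, beside 14.7% of all genes, also under these scalings. These comparisons share the N libraries and are not independent of each other. Against chow, the NP libraries were lower without overlap for *Ccl6*, *Ccl9* and *Ccr2*, 3 of the 8 members beside 23.0% of all genes. With 2 libraries a group, the smallest *P* value of an exact permutation test is 0.333, so the tests below rest on limma fitted to all genes.

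**Figure D1:**
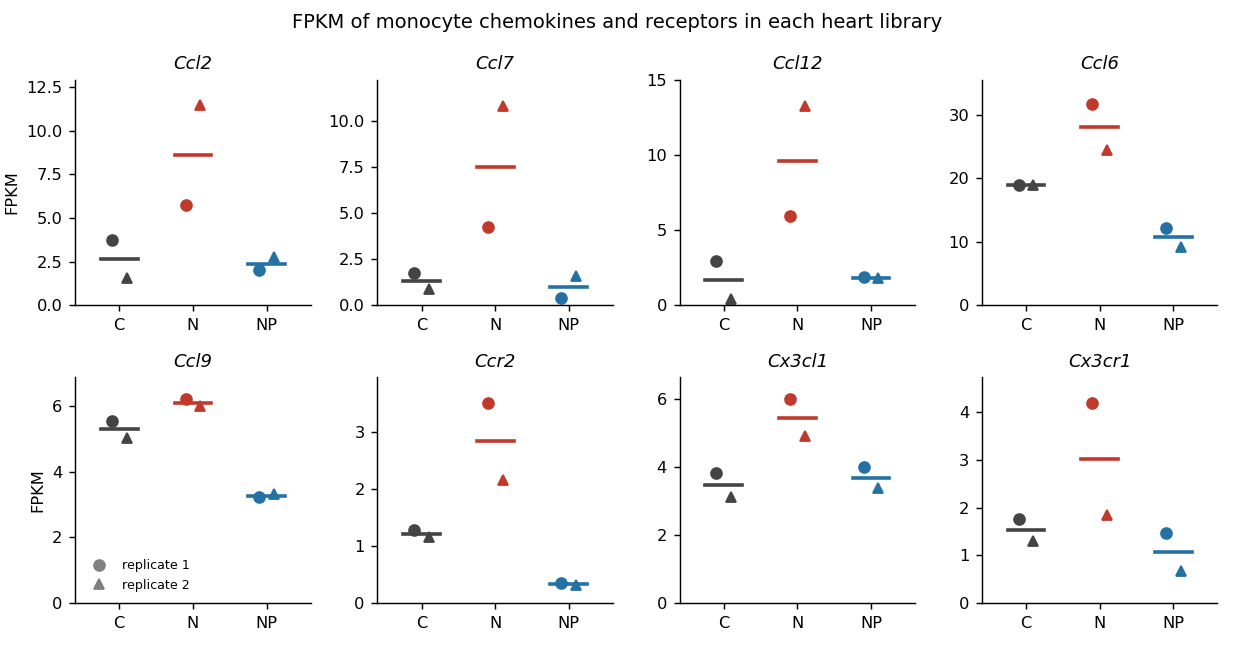
FPKM of the 8 members in each library of the C, N and NP groups, on a linear axis for each gene, with a circle for replicate 1, a triangle for replicate 2 and a line at the group mean. Both N libraries lie above both C and both NP libraries in all 8 panels, and the N replicates are 2.01 to 2.55 times apart for *Ccl2*, *Ccl7* and *Ccl12*.

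The ligands of Ccr2 had the largest ratios of the 8 members between the N and C groups. The level of *Ccl2*, the main monocyte chemoattractant, was 3.76 and 1.55 FPKM in the C group, 5.72 and 11.5 FPKM in the N group, and 2.04 and 2.74 FPKM in the NP group. The C and NP libraries overlapped, and N replicate 2 was far above all others. The mean in the N group, 8.60 ± 4.07 FPKM (SD, n = 2), was 3.24 times that of the C group and 3.60 times that of the NP group. The difference between the N and C groups was 1.39 on the scale of log2(FPKM + 1), which understates the change of low genes, with a 95% confidence interval from 0.42 to 2.37 and an adjusted *P* value of 0.195 in limma, so *Ccl2* did not pass the threshold of 0.05.

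*Ccl7*, which lies next to *Ccl2* and binds Ccr2 among other receptors, was at 1.74 and 0.861 FPKM in the C group, 4.24 and 10.8 FPKM in the N group, and 0.412 and 1.59 FPKM in the NP group. The lowest library was NP replicate 1, where the value came from about 2.0 reads, at the floor of 3 reads. N replicate 2 was again above N replicate 1, by 2.55 times. The mean was 5.79 times as high in N as in C. The log2 difference was 1.80 (95% confidence interval 0.64 to 2.96, limma adjusted *P* value 0.163).

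*Ccl12*, a mouse ligand of Ccr2 close to Ccl2 in sequence, was at 2.93 and 0.427 FPKM in the C group, 5.96 and 13.3 FPKM in the N group, and 1.87 and 1.79 FPKM in the NP group. The C replicates were 6.87 times apart, and C replicate 2 came from about 3.1 reads, which rounds to the floor, against 25.8 reads in C replicate 1. The NP libraries lay between the C libraries. The mean was 5.72 times as high in N as in C, with a log2 difference of 2.07 (95% confidence interval 0.76 to 3.39, limma adjusted *P* value 0.159). With any 1 library left out, the difference between the N and C groups ran from 0.94 to 1.85 for *Ccl2*, from 1.21 to 2.39 for *Ccl7* and from 1.34 to 2.80 for *Ccl12*, and none passed. Without C replicate 2, where liver markers were high, the 3 were 0.94, 1.52 and 1.34, and without N replicate 2 they were 0.95, 1.21 and 1.56. Without C replicate 1 they were larger, at 1.85, 2.08 and 2.80.

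From the N to the NP group, the log2 difference was -1.44 for *Ccl2* (95% confidence interval -2.41 to -0.47), -2.04 for *Ccl7* (-3.20 to -0.88) and -1.82 for *Ccl12* (-3.13 to -0.50). None of the 3 passed the test, with limma adjusted *P* values of 0.302, 0.184 and 0.349. All 3 were 2.01 to 2.55 times higher in N replicate 2 than in N replicate 1. Summed over the 3 ligands, the level was 8.44 and 2.84 FPKM in the C group, 15.9 and 35.6 FPKM in the N group, and 4.32 and 6.12 FPKM in the NP group, so each N library was above every other library.

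The remaining CC chemokines, *Ccl6* and *Ccl9*, were less variable between replicates. *Ccl6* was the most abundant member in every group, at 18.9 and 18.9 FPKM in the C group, 31.8 and 24.5 FPKM in the N group, and 12.2 and 9.16 FPKM in the NP group. No groups overlapped, and the NP libraries were the lowest. The mean of the N group was 1.49 times that of the C group, with a log2 difference of 0.54 (95% confidence interval 0.09 to 0.99) that did not pass the test (limma adjusted *P* value 0.255). From the N to the NP group *Ccl6* fell by 1.32 on the log2 scale (SE 0.18, limma adjusted *P* value 0.0340), and the mean of the N group was 2.63 times that of the NP group.

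*Ccl9* was at 5.56 and 5.03 FPKM in the C group, 6.22 and 6.003 FPKM in the N group, and 3.23 and 3.31 FPKM in the NP group. The step from the C to the N group was the smallest of the 8 members, with a ratio of means of 1.15 and a log2 difference of 0.18 (95% confidence interval -0.10 to 0.45, limma adjusted *P* value 0.518). With pemafibrate *Ccl9* fell by 0.74 on the log2 scale from the N group (SE 0.11, limma adjusted *P* value 0.0465). The *Ccl6* to *Ccl9* ratio was 3.39 and 3.75 in the C group, 5.11 and 4.08 in the N group, and 3.78 and 2.77 in the NP group, with the C and NP groups overlapping.

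*Ccr2*, the receptor of Ccl2, Ccl7 and Ccl12, was at 1.29 and 1.15 FPKM in the C group, 3.51 and 2.16 FPKM in the N group, and 0.357 and 0.312 FPKM in the NP group. The NP libraries held the lowest *Ccr2* values of the series, from about 8.2 and 7.4 reads, against 86.2 and 52.6 reads in the N group at a similar depth. With pemafibrate *Ccr2* fell by 1.50 on the log2 scale (SE 0.20, limma adjusted *P* value 0.0291), and the N mean was 8.48 times the NP mean. The N mean was 2.33 times the C mean, and that log2 difference of 0.77 (95% confidence interval 0.29 to 1.25) did not pass the test (limma adjusted *P* value 0.155).

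*Cx3cl1* was at 3.82 and 3.13 FPKM in the C group, 6.01 and 4.91 FPKM in the N group, and 3.99 and 3.39 FPKM in the NP group. The C and NP groups overlapped, and the N group lay above both. The N and C groups differed by 0.53 on the log2 scale (95% confidence interval 0.15 to 0.91, limma adjusted *P* value 0.204) and the NP and N groups by -0.46 (-0.84 to -0.08, limma adjusted *P* value 0.460). Markers of endothelium, a main source of Cx3cl1, summed to 343 to 357 FPKM in the C group, 316 to 404 FPKM in the N group and 330 to 424 FPKM in the NP group, and 0 of the 7 passed in either comparison. Without overlap, 2 of the 7 (*Emcn* and *Vwf*) were higher in N than in C, beside 22.5% of all genes. From N to NP 1 of the 7 was lower without overlap, beside 14.7%. The part of endothelium in the *Cx3cl1* differences was not tested.

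The receptor *Cx3cr1* was at 1.76 and 1.29 FPKM in the C group, 4.21 and 1.84 FPKM in the N group, and 1.46 and 0.661 FPKM in the NP group. N replicate 1 was 2.29 times N replicate 2, and N replicate 2 was barely above C replicate 1. On the log2 scale *Cx3cr1* differed by 0.61 from C to N (95% confidence interval -0.21 to 1.44, limma adjusted *P* value 0.462) and by -0.93 from N to NP (-1.75 to -0.10, limma adjusted *P* value 0.531). Without N replicate 1 the first difference was 0.17 and without N replicate 2 it was 1.05, while the second ran from -1.36 to -0.49 with a library left out. *Ccr2* was higher in N replicate 1 and its 3 ligands were higher in N replicate 2, whereas *Cx3cl1* and *Cx3cr1* were both higher in N replicate 1.

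**Figure D2:**
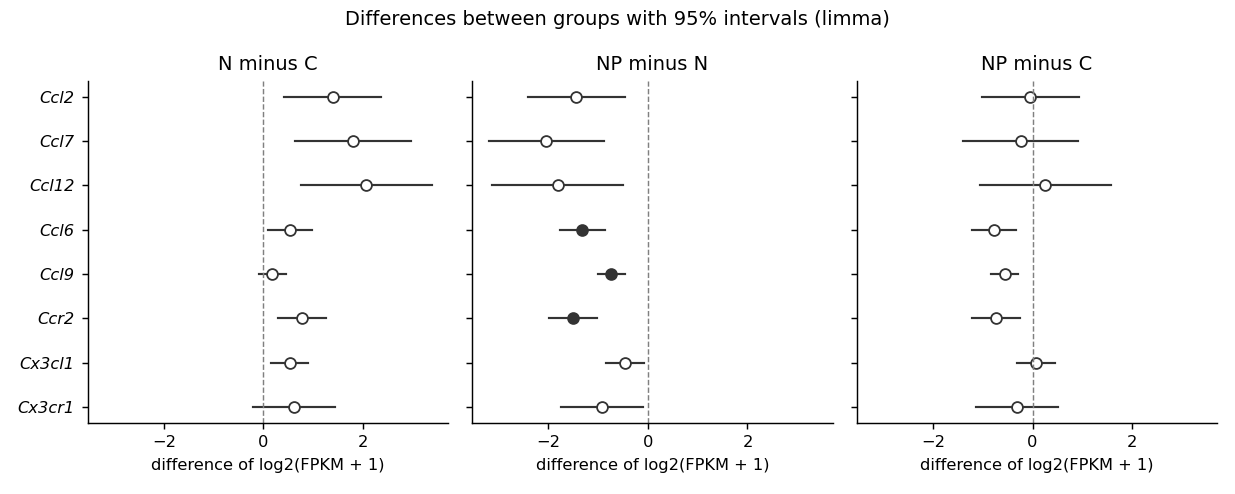
Differences in log2(FPKM + 1) of the 8 members between groups, with bars for the 95% confidence interval of the limma fit over 6 libraries and filled points for an adjusted P value under 0.05. The filled points are *Ccl6*, *Ccl9* and *Ccr2* between the NP and N groups, at -1.32, -0.74 and -1.50.

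Over the members as a whole, 0 of the 8 passed the limma test between the N and C groups, where 1.55% of all genes passed, and 6 of the 8 had an unadjusted *P* value under 0.05, as did 1065 higher and 873 lower genes of all 12923. Between the NP and N groups 3 of the 8 passed, against 1.39% of all genes, and all 8 had an unadjusted *P* value under 0.05, as did 754 lower and 285 higher genes of all. Between the NP and C groups 0 of the 8 passed, against 0.0387% of all genes, and *Ccl6*, *Ccl9* and *Ccr2* had an unadjusted *P* value under 0.05, as did 540 lower and 500 higher genes of all. The median log2 difference of the members was 0.69, -1.38 and -0.28 in these 3 comparisons, beside -0.03, 0.03 and -0.01 for all genes. The calls of *Ccl6*, *Ccl9* and *Ccr2* were sensitive to single libraries: leaving out any library, including a C library, ended the calls of *Ccl6* (limma adjusted *P* values 0.0593 to 0.150) and *Ccl9* (0.164 to 0.207), and that of *Ccr2* held only without N replicate 2 (0.0303, and up to 0.167 otherwise).

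Set against chow, the pemafibrate libraries overlapped with it for 5 members and lay below it for 3. *Ccl6* was 1.77 times, *Ccl9* 1.62 times and *Ccr2* 3.65 times as high in the C mean as in the NP mean, and their log2 differences of -0.78, -0.56 and -0.73 did not pass the test (limma adjusted *P* values 0.462, 0.392 and 0.507). For *Ccl2* the difference was -0.05 with a 95% confidence interval from -1.02 to 0.93, and for *Ccl12* it was 0.26 (-1.06 to 1.57). *Cx3cl1* differed by 0.07 (-0.31 to 0.45).

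The order of the levels was described within each group. In the C group *Ccl6* was followed by *Ccl9* and *Cx3cl1*, each separated from the next without overlap down to *Cx3cl1*, while *Cx3cl1*, *Ccl2*, *Ccl12*, *Cx3cr1*, *Ccl7* and *Ccr2* overlapped with their neighbours in that order. In the N group *Ccl12*, *Ccl2* and *Ccl7* came after *Ccl6* by their means of 9.61, 8.60 and 7.54 FPKM, but they overlapped with each other and *Ccl7* overlapped with *Ccl9* after it. That order was seen in N replicate 2, whereas in N replicate 1 *Ccl9* and *Cx3cl1* were above all 3. In the NP group *Ccr2* was the lowest, at 0.334 ± 0.0319 FPKM (SD, n = 2). It did not overlap with *Ccl7* above it, but the nearer *Ccl7* value, 0.412 FPKM in NP replicate 1, rested on about 2.0 reads, at the floor.

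Reads behind these values ranged widely. *Ccl6* rested on about 96.4 to 611.8 reads and *Ccl9* on 74.5 to 408.2 reads, whereas the ligands of Ccr2 rested on 60.3 reads or fewer in every C and NP library. Of the 48 member values, 2 were at or under 3 reads once rounded to whole reads, *Ccl7* in NP replicate 1 at about 2.0 and *Ccl12* in C replicate 2 at about 3.1. Reads were estimated from the FPKM and a transcript length, so those of genes with several transcripts are approximate.

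**Figure D3:**
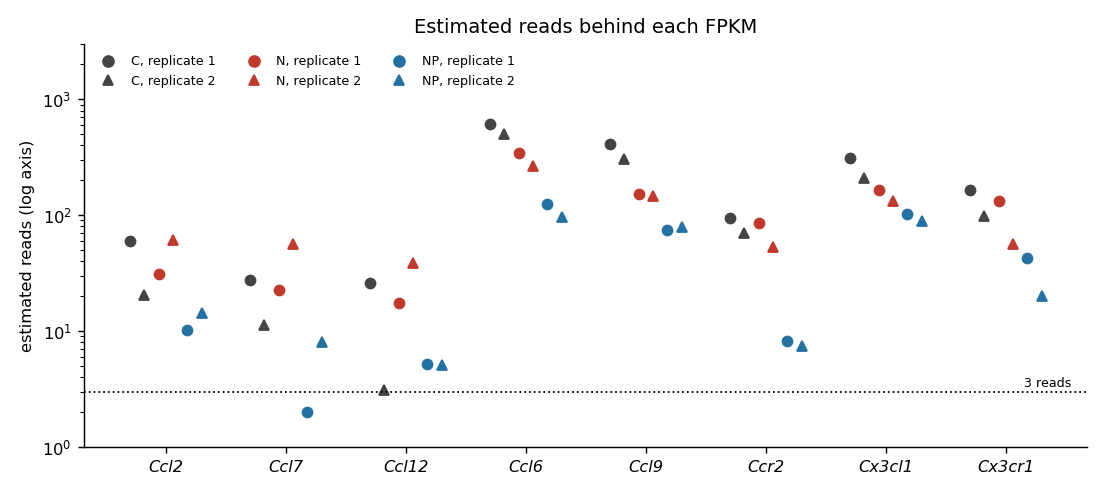
Estimated reads behind each FPKM value of the 8 members on a log axis, one point per library, with a dotted line at 3 reads. *Ccl7* in NP replicate 1, at about 2.0 reads, lies under the line, *Ccl12* in C replicate 2, at about 3.1 reads, lies just above it, and *Ccl6* stays above 96 reads in all 6 libraries.

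The neighbours of the members in the clusters were examined next. *Ccl8*, a ligand of Ccr2 and other receptors between *Ccl12* and *Ccl1*, was at 0.509 and 0.618 FPKM in the C group, 27.8 and 38.5 FPKM in the N group, and 1.22 and 1.16 FPKM in the NP group. *Ccl8* rose by 4.43 on the log2 scale in the N group (limma adjusted *P* value 0.000959) and fell by 3.94 from the N to the NP group (limma adjusted *P* value 0.000841). *Ccl5*, a T cell and monocyte chemoattractant in the second cluster, was at 0.953 and 0.723 FPKM in C, 14.6 and 18.8 in N, and 0.761 and 0 in NP. *Ccl5* rose by 3.26 (limma adjusted *P* value 0.00648) and fell by 3.73 (limma adjusted *P* value 0.00380). In the NP group *Ccl8* rested on about 3.1 reads in each library and *Ccl5* on about 2.1 and 0 reads, at the floor. Their C values rested on about 4.1 to 8.3 reads. *Ccl11*, an eosinophil chemoattractant between *Ccl7* and *Ccl12*, differed by 0.27 and -0.62 and did not pass (limma adjusted *P* values 0.823 and 0.890). Of these 6 cluster neighbours, *Ccl1*, *Ccl3* and *Ccl4* were under the filter, and *Ccl8* and *Ccl5* passed in both directions.

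**Figure D4:**
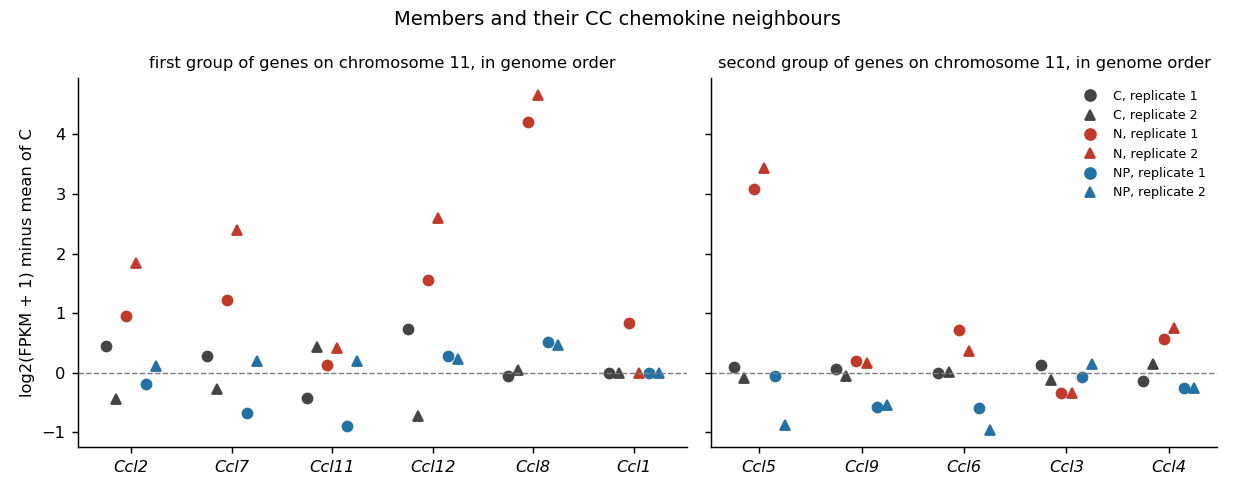
Differences of log2(FPKM + 1) from the mean of the C group for the chemokine genes of both chromosome 11 clusters in the order they lie on the chromosome, one point per library. *Ccl8* and *Ccl5* stand highest in the N libraries, at 27.8 and 38.5 FPKM for *Ccl8*, and *Ccl11* shows no separation of the groups.

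The wider chemokine pathway was listed with results of these data known, so the counts below are descriptions. Of 15 other chemoattractants of myeloid cells 11 were tested. *Ccl5* and *Ccl8* were called higher in the N than in the C group and lower in the NP than in the N group. The medians of these comparisons were 0.27 and -0.62 over the 11 genes. The complement component *C3* differed by 1.40 and -0.89 (limma adjusted *P* values 0.100 and 0.431). Of 14 other receptors and scavengers 12 were tested and 0 passed, with medians of 0.59 and -0.69. *C5ar1* and *Ccrl2*, receptors for complement C5a and for chemerin, had log2 differences of 0.92 and 1.11 between the N and C groups.

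The molecules that carry the signal of these receptors came next. Of 10 genes of chemokine receptor signalling, *Rac2*, *Dock2* and *Coro1a* rose in the N group, with log2 differences of 1.24, 0.94 and 1.63 (limma adjusted *P* values 0.0282, 0.0422 and 0.0152). *Rac2* and *Coro1a* fell from the N to the NP group, by 1.18 and 1.76 (limma adjusted *P* values 0.0344 and 0.0120). Rac2 and Dock2 control the actin skeleton of leukocytes during migration, and Coro1a binds actin in leukocytes. *Adam10* and *Adam17*, the proteases that shed Cx3cl1, differed by 0.25 (95% confidence interval -0.03 to 0.53) and 0.04 (-0.22 to 0.29) between the N and C groups and did not pass (limma adjusted *P* values 0.379 and 0.916). Over these lists 5 of the 35 genes tested were called between the N and C groups, 5 between the NP and N groups and 0 between the NP and C groups. Of all genes tested, 1.55%, 1.39% and 0.0387% were called in these comparisons.

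Genes with the profile most like each member over the 6 libraries were found by the root mean square of differences in centred log2 values. *Ccl2* lay nearest to the interferon-induced genes *Isg15* (0.137) and *Ifit2* (0.213). *Ccl6* lay nearest to *Fcgr2b* (0.101), an inhibitory antibody receptor, and to *Ccr2* (0.146), and *Ccr2* to *Fcgr2b* (0.142) and *Ccl6*. *Cx3cr1* lay nearest to *C3ar1* (0.130) and *Cd14* (0.136), *Ccl7* to *Aif1* (0.253) and *Cxcl9* (0.263), and *Ccl12* to *Ccl2* (0.339) and *H2-Q6* (0.346). *Ccl9* lay nearest to *Rfc5* (0.0888) and *Dock8* (0.0915), and *Cx3cl1* to *Tlr2* (0.0466) and *Tmco4* (0.0476).

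The summed macrophage markers moved with the members, though *Mertk* overlapped between the N and NP groups and *Cd163* between the C and N groups. The 11 macrophage markers summed to 412 and 370 FPKM in the C group, 763 and 638 FPKM in the N group, and 315 and 276 FPKM in the NP group, without overlap between the groups. Between the N and C groups 4 of the 11 were called higher (*Adgre1*, *Fcgr1*, *Mrc1* and *C1qb*), beside 1.55% of all genes called. Between the NP and N groups 7 were called lower (those 4 with *Cd68*, *Lyz2* and *C1qc*), beside 1.39% of all genes called. In bulk RNA, fewer macrophages or monocytes and less RNA per cell cannot be told apart, and the part of macrophage abundance in the member differences was not tested. Relative to *Csf1r*, a receptor of the macrophage lineage, *Ccr2* was at 0.0739 and 0.0705 in the C group, 0.104 and 0.0923 in the N group and 0.0195 and 0.0214 in the NP group, without overlap between groups. The C to N part depends on the marker chosen. The *Ccr2* mean was 2.33 times as high in N as in C. *Cd68* rose more, from 6.13 to 15.2 FPKM, as did *Fcgr1*, from 0.856 to 3.53 FPKM, and the other markers rose less. The *Cx3cr1* to *Csf1r* ratio was 0.101 and 0.0791, 0.125 and 0.0784, and 0.0799 and 0.0454 in the 3 groups, which overlapped.

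Of 10 monocyte markers 5 were tested, and *Plac8* rose in the N group while 0 passed between the NP and N groups. The summed level was 49.2 and 44.4 FPKM in the C group, 74.3 and 87.2 FPKM in the N group and 58.9 and 78.6 FPKM in the NP group. That sum includes *Nr4a1*, at 7.43 and 31.7 FPKM in N and 12.2 and 40.5 FPKM in NP. Of all 10 markers, 9 were higher in both N than in both C libraries, beside 22.5% of all genes tested. Between the NP and N groups 7 of the 10 were lower without overlap, beside 14.7% of all genes. The 10 include genes under the filter, with few reads. *Ly6c2* and *Treml4* were listed at 0 in NP replicate 1 and *Chil3* in NP replicate 2, and *Plac8* ranged from 0.380 to 10.3 FPKM and *Nr4a1* from 5.12 to 40.5 FPKM across the libraries. Of 6 neutrophil markers 3 were tested, and *S100a8* fell from the N to the NP group, where it rested on 0 and about 1.5 reads, at the floor. Of 8 T and NK cell markers 1 was tested, *Nkg7*, which passed the filter only through its N values of 3.58 and 3.40 FPKM. Its C and NP values rested on about 3.4 reads or fewer. Its log2 differences of 1.97 from C to N and -2.03 from N to NP are therefore descriptions, not tests of the N group. The 8 markers summed to 0.824 and 0.931 FPKM in the C group, 7.33 and 7.01 in the N group and 0.766 and 0.659 in the NP group. Of 4 B cell markers 2 were tested, which also reached the filter only through their N values, and 0 passed the test. Their median log2 differences were 1.02 from C to N and -0.89 from N to NP. Of 6 adipocyte markers 5 were tested and 0 passed, with medians of 2.45 and -1.17. Their summed level was 1330 to 1343 FPKM in the C group, 1180 to 1274 FPKM in the N group and 1010 to 1123 FPKM in the NP group. That sum was mostly *Fabp4*, at 1322 to 1341 FPKM in the C group. The other 5 were higher in both N libraries than in both C libraries, beside 22.5% of all genes tested. *Adipoq* was at 0.593 and 1.12 FPKM in C, 16.0 and 14.6 in N, and 1.66 and 11.9 in NP. The part of these cell types in the member differences was not tested.

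**Figure D5:**
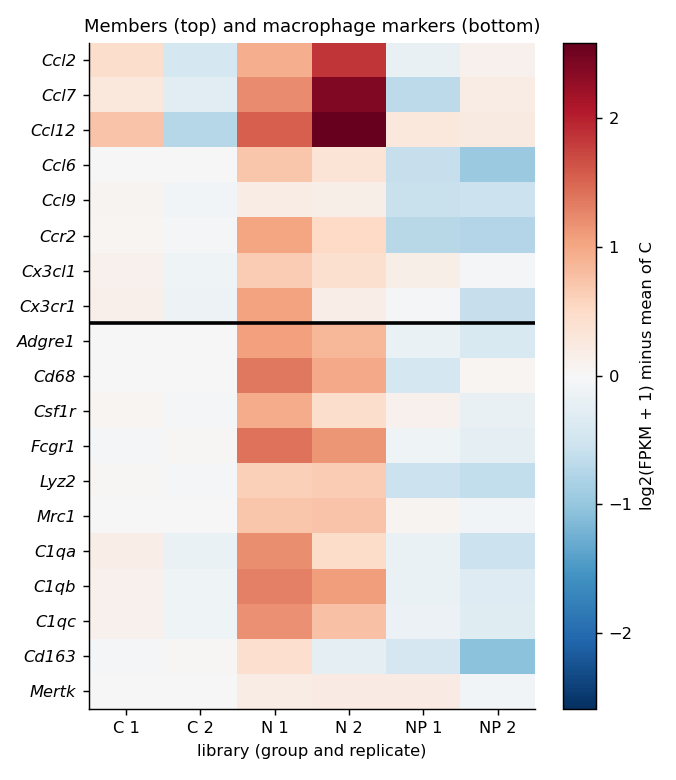
Heat map of log2(FPKM + 1) minus the mean of the C group for the 8 members (top) and the 11 macrophage markers (bottom) in each of the 6 libraries. The N libraries are high in both blocks apart from *Cd163* in N replicate 2, with summed marker levels of 763 and 638 FPKM, and *Ccr2* is below the C group in both NP libraries.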

How the data were processed

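RNA from mouse hearts was sequenced by the authors on 75-base single-end reads from a stranded mRNA kit. Reads were mapped to mm10 with TopHat2 2.0.13, Bowtie2 2.2.3 and SAMtools 0.1.19, and the deposited values are FPKM from Cufflinks 2.2.1, according to the submitters' processing notes. The annotation is not given in the sources used here, and the files do not state the depth.

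Samples were grouped by the diet in the labels. FPKM were taken as log2(FPKM + 1) without scaling, and the 12923 genes whose mean FPKM reached 0.5 were fitted with limma 3.58.1 in R 4.3.3 (3 groups, 3 residual degrees of freedom, two-sided, Benjamini-Hochberg adjustment over all genes, threshold 0.05). The fit was tested on simulated data. Depth was inferred from the size of 1 read in the FPKM values of 3552 genes with 1 GENCODE M21 transcript, with 200 bases taken off, and 74.7% to 81.1% of low values lay within 0.1 of a whole read. Figures used Python 3.11.15 with matplotlib 3.10.9.

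The members and lists were chosen with earlier results of these data known. Named genes are the members, list genes past the threshold (or the 3 with the largest N to C difference where fewer than 3 pass), and the 2 nearest profiles per member. Some genes given by this rule are counted but not reported here by name. Alternatives varied pseudocount, filter, scaling, groups fitted, replicate block and left-out libraries. Columns belonging to no sample numbered 0.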

Additional observations from a re-analysis of the deposited data

How the results depend on the processing

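Of 384 member differences recomputed under 16 alternatives per comparison, 9 turned sign, all between the NP and C groups, where no member was called. *Ccl2* became 0.057 scaled to the same total, and *Cx3cl1* became -0.086 scaled to the same median. With a library left out, this difference ran from -0.50 to 0.40 for *Ccl2*, -0.68 to 0.19 for *Ccl7*, -0.47 to 0.99 for *Ccl12* and -0.043 to 0.18 for *Cx3cl1*. Between the NP and N groups the members called numbered 0 with no filter, 1 scaled to the same total, 0 with only the 2 groups compared, and 0 to 1 with a library left out. Over all genes, 6 higher and 141 lower of 17880 were called between the NP and N groups with no filter. Scaled to the same total, 0 higher and 176 lower of 12923 were called, and 0 higher and 108 lower of 12897 with only the 2 groups compared. Scaling moved the median of all genes by 0.147 (same total) and -0.149 (same median) between the N and C groups, by 0.130 and -0.166 between the NP and C groups, and by under 0.02 between the NP and N groups.

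The labels tie no libraries across groups, so the replicate numbers were not taken as pairs. The names of the deposited files are of one kind for replicate 1 of both N and NP and of another for replicate 2 of both, so an unlabelled batch shared by these libraries cannot be told apart from the replicate number. Deviations from the group means correlated at 0.458 (Pearson) and 0.555 (Spearman) between N and NP libraries of the same number, 0.0471 and 0.230 between C and N, and 0.124 and 0.263 between C and NP, across 12923 genes that are not independent replicates. With the replicate block over all groups, *Ccl9* had an adjusted *P* value of 0.0522 in limma and 2 members remained called between the NP and N groups. The block over all groups called 4 higher and 196 lower genes of all 12923 between the NP and N groups. With that block fitted to N and NP alone, the members called were 3 between the N and C groups, 4 between the NP and N groups and 1 between the NP and C groups. In that order, this setting called 596 higher and 504 lower, 12 higher and 289 lower, and 36 higher and 19 lower genes of all 12923. The main fit called 191 higher and 9 lower genes between the N and C groups.

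For the genes of the pathway lists, counted under alternatives after seeing the data, the number called between the N and C groups was 5, and 3 with a pseudocount of 0.1, 8 scaled to the same total, 15 with the block for N and NP only and 1 to 4 with a library left out. Between the NP and N groups it was 5, and 2 with a pseudocount of 0.1, 3 with no filter, 3 with only the 2 groups compared, 11 with the block for N and NP only and 2 to 4 with a library left out. Over all genes, the pseudocount of 0.1 called 175 higher and 9 lower between the N and C groups, and 1 higher and 155 lower between NP and N. Scaled to the same total, 300 higher and 9 lower genes were called between the N and C groups. Member values at or under 3 reads numbered 1 with no bases taken off the transcript length.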
